A study of Mus musculus with 2 samples.

Results

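The cytosolic ribosomal protein genes encode the proteins of the large subunit (symbols in Rpl) and small subunit (symbols in Rps) of the ribosome that translates nuclear-encoded mRNAs. They were taken by symbol from the RefSeq protein-coding genes, with Rplp0, Rplp1, Rplp2 and Rpsa added, which gave 84 of 21887 genes on chromosomes 1 to 19, X and Y. Of the 84 genes, 7 carry symbols of paralogs (Rpl3l, Rpl7l1, Rpl10l, Rpl22l1, Rpl32l, Rpl39l and Rps27l), 46 are other large subunit genes and 31 other small subunit genes. Fau, Rack1 and Rpl36al, whose products are also ribosomal or are near-copies of ribosomal proteins, fall outside the symbol rule.

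Acetylation of lysine 27 of histone H3 (H3K27ac), found at active promoters and enhancers, was mapped by CUT&Tag, in which an antibody tethers a transposase to marked chromatin. The Tle4cKO library came from C57BL/6 mice with genotype Tle4f/f Lyz2-Cre, in which Cre made from the Lyz2 locus deletes the corepressor gene Tle4 in myeloid cells (Lyz2 is also active in monocytes and neutrophils), and the WT library from C57BL/6 mice with Lyz2-Cre alone, so Cre was present in both. Cells of 4 male mice, 11.1 weeks old, were pooled per genotype after a sort for colonic macrophages (Siglec-F-negative, Ly6C-low, CD64-positive). With 1 library per genotype no test between genotypes exists, no difference has a replicate check, and intervals below are exact 95% binomial intervals that cover counting error only.

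The Tle4cKO list held 2350 peak summits and the WT list 10474, so far fewer regions of any kind were called in Tle4cKO. Read depth is unknown. Tle4 itself had 0 summits within 10 kb in either list, so these lists do not check its deletion. A summit is the single base at which a peak is highest. Its score is the authors' −log10 of a p- or q-value, which grows with depth. Scores are therefore compared only within a list, except where 1 score minimum is applied to both lists. A gene without a summit is one at which no peak was called, which may still be acetylated. Of 15 genes fixed as a check for macrophages, 1 (Ptprc) had a Tle4cKO summit in the gene or within 10 kb, with a score of 4.45. Ptprc is active in leukocytes of all kinds, so it does not tell macrophages from the others. A WT summit was found at 9 of the 15, with scores from 2.03 to 7.01. Ptprc was not among these 9, so none of the 15 was called in both lists. Lyz2, C1qa, C1qb, C1qc and Itgam had none in either list. Of 10 epithelial genes, 0 had a Tle4cKO summit and 1 (Cdh1, 4.43) a WT summit. The corresponding counts were 0 and 2 of 6 T cell genes, 1 and 3 of 6 B and plasma cell genes, 2 and 6 of 6 dendritic cell genes, and 0 and 1 of 4 eosinophil genes, with none among 6 fibroblast and muscle or 6 neutrophil genes. In the same window 11.6% of all protein-coding genes had a Tle4cKO and 39.2% a WT summit. The genes of these lists called in both libraries were Clec9a and Xcr1 (dendritic cell) and Jchain (B and plasma cell). The part of other cell types in the results on ribosomal protein genes was not tested.

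Ribosomal protein genes are transcribed at high rates in nearly all cells, since each ribosome needs a matched set of these proteins. Their mRNAs typically begin with a C followed by a run of pyrimidines, the terminal oligopyrimidine (TOP) tract, through which their translation is adjusted to nutrients by the mTOR kinase. Many of the genes are short, and in mammals a number of them carry small nucleolar RNAs (snoRNAs), guides of rRNA modification, in their introns.

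The promoters of 8 genes are shown, with 250 bases before and 50 bases from the RefSeq start onward, because they span the range of outcomes described below: the 3 highest-scoring starts called in both libraries, the 2 highest called in WT alone, the start called in Tle4cKO alone, and the first 2 genes by symbol without any summit. Sequences are from RefSeq (GRCm38.p6, the assembly behind mm10), 5′ to 3′ on the coding strand. Capitals mark the longest run of a C and at least 4 further pyrimidines that begins within 25 bases of the start, and any match to CCGGAAG (the ETS family site), AGATGGC (part of the YY1 site) or GGGCGGG (the site of SP-family factors, called a GC box) on either strand, or TATAAA (the TATA box) on the coding strand.
Rpl19 (chr11:98026674-98026973, plus strand): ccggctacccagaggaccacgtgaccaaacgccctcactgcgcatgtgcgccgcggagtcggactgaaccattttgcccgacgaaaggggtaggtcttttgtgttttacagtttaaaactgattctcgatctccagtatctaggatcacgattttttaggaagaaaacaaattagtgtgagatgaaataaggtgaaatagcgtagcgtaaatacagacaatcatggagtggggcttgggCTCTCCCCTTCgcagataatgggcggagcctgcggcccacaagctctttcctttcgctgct
Rps23 (chr13:90922872-90923171, plus strand): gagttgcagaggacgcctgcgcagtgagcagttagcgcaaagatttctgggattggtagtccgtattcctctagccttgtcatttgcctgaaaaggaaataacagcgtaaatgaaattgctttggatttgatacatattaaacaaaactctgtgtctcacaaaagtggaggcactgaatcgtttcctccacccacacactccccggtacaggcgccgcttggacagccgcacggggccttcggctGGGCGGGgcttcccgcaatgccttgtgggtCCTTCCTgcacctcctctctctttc
Rpl4 (chr9:64173137-64173436, plus strand): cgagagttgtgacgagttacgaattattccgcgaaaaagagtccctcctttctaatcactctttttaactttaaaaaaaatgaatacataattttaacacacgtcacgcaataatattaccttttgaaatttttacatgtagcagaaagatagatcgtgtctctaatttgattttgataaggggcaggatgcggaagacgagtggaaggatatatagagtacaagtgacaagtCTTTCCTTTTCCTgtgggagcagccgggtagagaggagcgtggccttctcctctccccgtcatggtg
Rps15 (chr10:80292181-80292480, plus strand): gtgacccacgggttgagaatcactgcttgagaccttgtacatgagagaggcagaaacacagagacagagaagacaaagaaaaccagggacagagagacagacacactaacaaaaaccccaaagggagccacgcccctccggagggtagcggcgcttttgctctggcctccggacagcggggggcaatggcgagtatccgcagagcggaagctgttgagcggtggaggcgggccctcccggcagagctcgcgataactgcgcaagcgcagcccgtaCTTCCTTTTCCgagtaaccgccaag
Rps13 (chr7:116334141-116334440, minus strand): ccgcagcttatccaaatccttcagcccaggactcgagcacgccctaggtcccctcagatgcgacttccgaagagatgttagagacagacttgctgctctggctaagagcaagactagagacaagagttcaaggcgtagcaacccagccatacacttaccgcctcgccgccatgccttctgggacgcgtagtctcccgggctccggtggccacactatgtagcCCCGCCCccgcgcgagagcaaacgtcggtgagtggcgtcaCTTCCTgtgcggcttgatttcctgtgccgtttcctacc
Rplp2 (chr7:141447401-141447700, plus strand): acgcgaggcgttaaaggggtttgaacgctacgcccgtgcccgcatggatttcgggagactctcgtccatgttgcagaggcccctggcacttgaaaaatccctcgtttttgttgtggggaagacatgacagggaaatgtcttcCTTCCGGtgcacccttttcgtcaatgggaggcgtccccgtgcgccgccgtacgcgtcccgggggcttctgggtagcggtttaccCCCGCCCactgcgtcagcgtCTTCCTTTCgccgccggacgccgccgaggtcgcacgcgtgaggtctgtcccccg
Rpl10 (chrX:74270566-74270865, plus strand): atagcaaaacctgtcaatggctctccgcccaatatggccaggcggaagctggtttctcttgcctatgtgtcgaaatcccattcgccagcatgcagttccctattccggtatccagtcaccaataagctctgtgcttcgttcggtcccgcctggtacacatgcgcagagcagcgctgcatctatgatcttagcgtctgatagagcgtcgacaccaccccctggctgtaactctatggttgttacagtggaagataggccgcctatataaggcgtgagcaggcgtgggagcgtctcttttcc
Rpl10a (chr17:28328221-28328520, plus strand): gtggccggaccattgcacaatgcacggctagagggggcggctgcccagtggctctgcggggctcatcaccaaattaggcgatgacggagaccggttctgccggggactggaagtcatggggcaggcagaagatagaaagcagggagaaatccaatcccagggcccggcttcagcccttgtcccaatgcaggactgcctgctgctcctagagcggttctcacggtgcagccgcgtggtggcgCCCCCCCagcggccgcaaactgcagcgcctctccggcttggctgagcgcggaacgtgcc

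Called in both libraries were Rpl19, Rps23 and Rpl4. Called in WT alone were Rps15 and Rps13, and called in Tle4cKO alone was Rplp2, while Rpl10 and Rpl10a had no summit. The pyrimidine run began 11 bases before the start in Rpl19, 17 before it in Rpl4, 4 before it in Rplp2 and 9 before it in Rpl10a. In Rps23 and Rps15 it began at base 26 of the transcript, and in Rps13 at base 13. Rpl10a held an equally long run, CCTCTCC, inside the transcript and within the same window, which is not marked. Rpl10 had none in this window. A GC box began 5 bases before the start in Rps23, 28 before it in Rps13 and 24 before it in Rplp2, which also had an ETS-type match 108 bases before its start.

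Over all ribosomal protein genes, 64 of 84 had a promoter entry. An ETS-type match was found in 26 of these 64 genes (40.6%), against 12.9% of 17492 protein-coding genes with an entry. A GC box was found in 29 (45.3%, against 36.9%), the TATA box in 7 (10.9%, against 9.82%) and the YY1-type match in 9 (14.1%, against 6.95%). A pyrimidine run within 25 bases of the start was present in 54 (84.4%, against 59.8%), and one within 10 bases in 40 (62.5%, against 34.9%). RefSeq starts can lie some bases from the true start, and these matches describe letters, not bound sites. None of the ETS, YY1, TATA and GC box letters contains another. An ETS-type match read on the other strand opens with CTTCC, which by itself meets the definition of a pyrimidine run. Such a match near the start can count as both, so the ETS and run shares are not separate. A GC box match read on the other strand also opens with pyrimidines and can overlap a run.

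The first comparison asked which ribosomal protein genes carried a called H3K27ac summit at their ends. Within 1 kb of either outer end of the gene, a summit was called at 17 of 84 genes in Tle4cKO (20.2%, interval 12.3 to 30.4%) and at 52 in WT (61.9%, 50.7 to 72.3%). Over all protein-coding genes the shares were 6.19% in Tle4cKO and 22.6% in WT. The genes are short, with a median length of 3179 bp against 17169 bp for all protein-coding genes. Among the 8615 protein-coding genes between their shortest (592 bp) and longest (11774 bp) lengths, 3.61% had a Tle4cKO and 15.7% a WT gene-end summit. The shares of the ribosomal protein genes lay above these in both libraries. Lengths were not matched within this range, so the part of gene length was not tested.

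Summits in both libraries were found at 16 genes, against 5.6% of all protein-coding genes. They were Rpl4, Rpl5, Rpl7, Rpl9, Rpl14, Rpl21, Rpl26, Rpl30, Rpl31, Rpl34, Rpl35a, Rps7, Rps23, Rps25, Rps27a and Rps29. A Tle4cKO summit alone marked 1 gene, Rplp2 (0.594% of all genes), and a WT summit alone marked 36 (17.0% of all genes). The remaining 31 genes had no gene-end summit in either list, where 76.8% of all genes had none. Of the 52 genes with a WT summit, 30.8% (18.7 to 45.1%) also had one in Tle4cKO. Over all genes this share was 24.7%, which lies inside that interval.

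**Figure D1:**
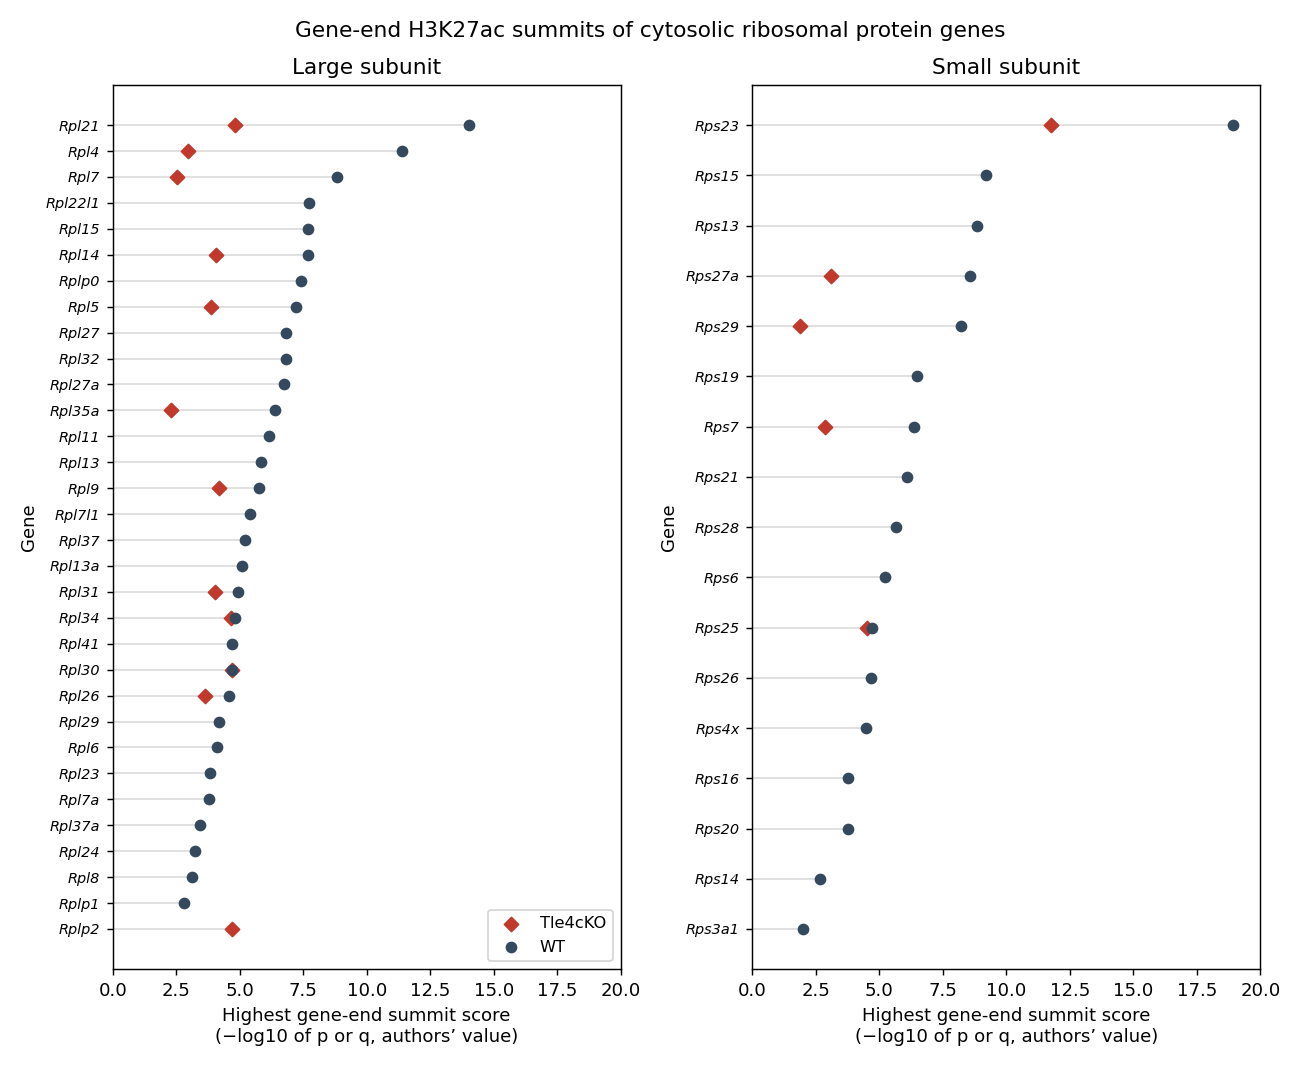
Highest score (horizontal axis, authors' −log10 of a p- or q-value) of a summit within 1 kb of a gene end for ribosomal protein genes with such a summit (a few are not drawn), in Tle4cKO (diamonds) and WT (circles), large subunit left and small subunit right. Rps23 has the highest score in each list (11.7 in Tle4cKO and 18.9 in WT), and all other Tle4cKO scores lie at or under 4.83.

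Rps23, whose product forms part of the decoding centre of the small subunit, had the highest gene-end score of the group in each list. Its summit had a score of 11.7 in Tle4cKO, at position 90923063 of chromosome 13, and 18.9 in WT, at position 90923104. Both lay just before the start, 59 and 18 bases upstream in Tle4cKO and WT. Among all summits of its own list it ranked 127th in Tle4cKO and 108th in WT.

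Rpl19, whose product helps to join the subunits, had a score of 11.3 in Tle4cKO and 20.7 in WT. That WT score exceeds every WT gene-end score of the group. Its RefSeq gene entry opens upstream of the starts in the promoter table, so that the summits, at positions 98026891 and 98026892 of chromosome 11 in Tle4cKO and WT, lay 3602 and 3601 bp from a gene end and did not count there. They lay 33 and 32 bases before the RefSeq start whose promoter is printed above. Rps27l, a paralog of Rps27, was also missed by the gene-end window, with a WT summit of 7.22 that lay 1221 bp from its outer end and 241 bases before an annotated start, and no Tle4cKO summit.

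Large subunit genes called in both libraries had Tle4cKO scores from 2.31 to 4.83. Rpl21 scored 4.83 in Tle4cKO and 14.0 in WT. Rpl4, whose product lines the exit tunnel of the growing peptide, scored 2.98 in Tle4cKO and 11.4 in WT. Thus the highest WT gene-end scores after that of Rps23 went with Tle4cKO scores under 5. Rpl7 scored 2.55 in Tle4cKO and 8.82 in WT, Rpl14 4.05 and 7.69, and Rpl35a 2.31 and 6.39. The lowest WT scores of these genes belonged to Rpl26 (3.64 in Tle4cKO and 4.58 in WT), Rpl30 (4.71 and 4.70) and Rpl34 (4.65 and 4.82), although among these large subunit genes Rpl21 alone had a higher Tle4cKO score than Rpl30 and Rpl34. Rpl9 scored 4.17 in Tle4cKO and 5.77 in WT, and Rpl31 4.04 and 4.95.

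Small subunit genes called in both libraries numbered 5 with Rps23. Rps27a, made as a fusion with ubiquitin, scored 3.10 in Tle4cKO and 8.56 in WT. Rps29 scored 1.87 in Tle4cKO and 8.21 in WT, the lowest Tle4cKO gene-end score of the group. Rps7 scored 2.85 and 6.36, and Rps25, which several viral mRNAs need to start translation, 4.51 and 4.70. By subunit and without the paralogs, a Tle4cKO summit was called at 12 of 46 large subunit genes (26.1%, 14.3 to 41.1%) and 5 of 31 small subunit genes (16.1%, 5.45 to 33.7%). A WT summit was called at 30 (65.2%) and 20 (64.5%). The intervals of the subunits overlapped in each library.

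The 36 genes with a gene-end summit in WT alone had WT scores from 1.99 to 9.19 with a median of 5.17, against a median of 6.81 for the 16 genes called in both. The highest was Rps15 (9.19), whose product sits in the head of the small subunit. Also high were Rps13 (8.84), the paralog gene Rpl22l1 (7.74), Rpl15 (7.69) and Rplp0 (7.40). Rps6, whose product is the target of the S6 kinases, scored 5.24, and Rpl13a, known from human myeloid cells for a role in silencing inflammatory mRNAs, 5.11. The lowest was Rps3a1 (1.99).

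Genes grouped by role showed mixed outcomes. The stalk of the large subunit, which recruits elongation factors, is built from the products of Rplp0, Rplp1 and Rplp2. Rplp2 had a gene-end summit of 4.71 in Tle4cKO and none in WT, where the only summit in its window scored 3.81, lay 7865 bp from the Tle4cKO summit and stood at an end of Pnpla2. Rplp0 and Rplp1 had none in Tle4cKO and scored 7.40 and 2.80 in WT. Rpl5 and Rpl11, whose products bind the small rRNA of the large subunit and can restrain Mdm2, the ubiquitin ligase of p53, fell into different classes. Rpl5 scored 3.87 in Tle4cKO and 7.23 in WT, and Rpl11 had no Tle4cKO summit and scored 6.15 in WT.

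Of 18 genes whose human counterparts are mutated in Diamond-Blackfan anaemia, an inherited failure of red cell production, 6 had a gene-end summit in Tle4cKO and 13 in WT, and all 6 were among the 13. These are 33.3% (13.3 to 59.0%) in Tle4cKO and 72.2% (46.5 to 90.3%) in WT, against 20.2% and 61.9% of all 84 genes, which lie inside these intervals, and 6.19% and 22.6% of all protein-coding genes. The 6 were Rpl5, Rpl26, Rpl31, Rpl35a, Rps7 and Rps29, with Tle4cKO scores from 1.87 to 4.04 and WT scores from 4.58 to 8.21. Rps19, the gene most often mutated in that disorder, had no Tle4cKO summit and a WT score of 6.48. Of the 4 X-linked genes, 0 had a Tle4cKO summit in the gene or within 10 kb, beside 11.6% of all protein-coding genes. With 4 genes these are too few for a comparison. Rps4x had a WT gene-end summit (4.48), Rpl36a had a WT summit of 4.62 near the neighbouring Btk, and Rpl10 and Rpl39 had none.

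Of the 7 paralog genes, 0 had a gene-end summit in Tle4cKO (interval up to 41.0%) and 2 in WT (28.6%, 3.67 to 71.0%), and the shares of all protein-coding genes, 6.19% and 22.6%, lie inside these intervals. The 2 were Rpl22l1, 65 bases after its start, and Rpl7l1 (5.41), whose summit lay 9740 bases from its start and within 1 kb of an end of 2310039H08Rik. Rpl3l, which is known from striated muscle, had a WT summit of 2.83 near Ndufb10 that also fell in the window of Rps2. Rpl10l and Rpl39l, known from the testis, and Rpl32l had no summit in either list.

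The second comparison widened the window to the whole gene and 10 kb on either side. A summit was called at 19 of 84 genes in Tle4cKO (22.6%, 14.2 to 33.0%) and at 66 in WT (78.6%, 68.3 to 86.8%), against 11.6% and 39.2% of all protein-coding genes. All 19 also had a WT summit, so the wide window held no gene called in Tle4cKO alone, where 0.832% of all genes were. A WT summit alone marked 47 genes (28.4% of all genes). The share of WT genes also called in Tle4cKO was 28.8% (18.3 to 41.3%), beside 27.6% over all genes.

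The wide window added 13 genes without a gene-end summit, among them Rpl3, Rpl12, Rpl17, Rpl19, Rpl23a, Rpl35, Rpl36a, Rpl3l, Rps2, Rps12, Rps27l and Rpsa. Rpl19 was called in both libraries and the other 12 in WT alone. Many of these summits stood at other genes. Of 25 WT pairings of a gene with a summit off its ends, 14 had the summit within 1 kb of another protein-coding gene's end, and in 3 (Rpl17, Rpl19 and Rps27l) it lay inside the ribosomal protein gene. Rpl27 counted as called in both through summits at Ifi35 (3.54 in Tle4cKO and 6.23 in WT), while its own gene-end summit (6.83) was in WT alone. Beside its gene-end summits Rps29 had a summit at Lrr1, with 8.81 in Tle4cKO and 11.7 in WT.

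The wide window left 18 genes with no summit in either list (21.4% of 84, against 60.0% of all protein-coding genes). They comprised 15 genes of the ribosome, Rpl10, Rpl10a, Rpl18, Rpl22, Rpl28, Rpl36, Rpl38, Rpl39, Rps3, Rps9, Rps10, Rps15a, Rps18, Rps24 and Rps27, and the 3 paralogs Rpl10l, Rpl32l and Rpl39l. Near the limits of the windows, the WT summits of Rpl29 (939 bp) and Rpl7l1 (991 bp) lay just within 1 kb of an end and that of Rps27l just beyond. The WT summit of Rps12 lay 9996 bp from the gene, and the nearest Tle4cKO summit to Rps9 lay 10860 bp away and did not count.

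Where both libraries had a gene-end summit, the summits mostly marked the same place. The closest Tle4cKO and WT summits lay within 500 bp of each other at 15 of the 16 genes, at a median distance of 87 bp. Over the 1225 protein-coding genes with both, 96.4% did, at a median of 98 bp. The exception was Rpl31, with 667 bp. The Rps27a summits were at the same base, 29547685 of chromosome 11, and those of Rps7 and Rpl7 were 1 and 2 bp apart. Such agreement within 10 bp was seen at 3 of the 16 genes and at 11.1% of all genes with both.

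The third comparison set the ribosomal protein genes beside 3 related groups. Mitochondrial ribosomal protein genes (78) had gene-end summits in 16.7% in Tle4cKO and 55.1% in WT. Genes with symbols in Eif and Eef (70), which hold translation initiation and elongation factors together with kinases, methyltransferases and binding proteins that act on them, had 22.9% and 60%, and 57 ribosome biogenesis genes 17.5% and 54.4%. The intervals of all 3 groups overlapped those of the cytosolic ribosomal protein genes in each library, and all of these shares lay above the 6.19% and 22.6% of all protein-coding genes. Of the ribosomal genes outside the symbol rule, Rpl36al had no Tle4cKO summit and a WT gene-end summit of 6.48, while Fau and Rack1 had none at their ends.

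**Figure D2:**
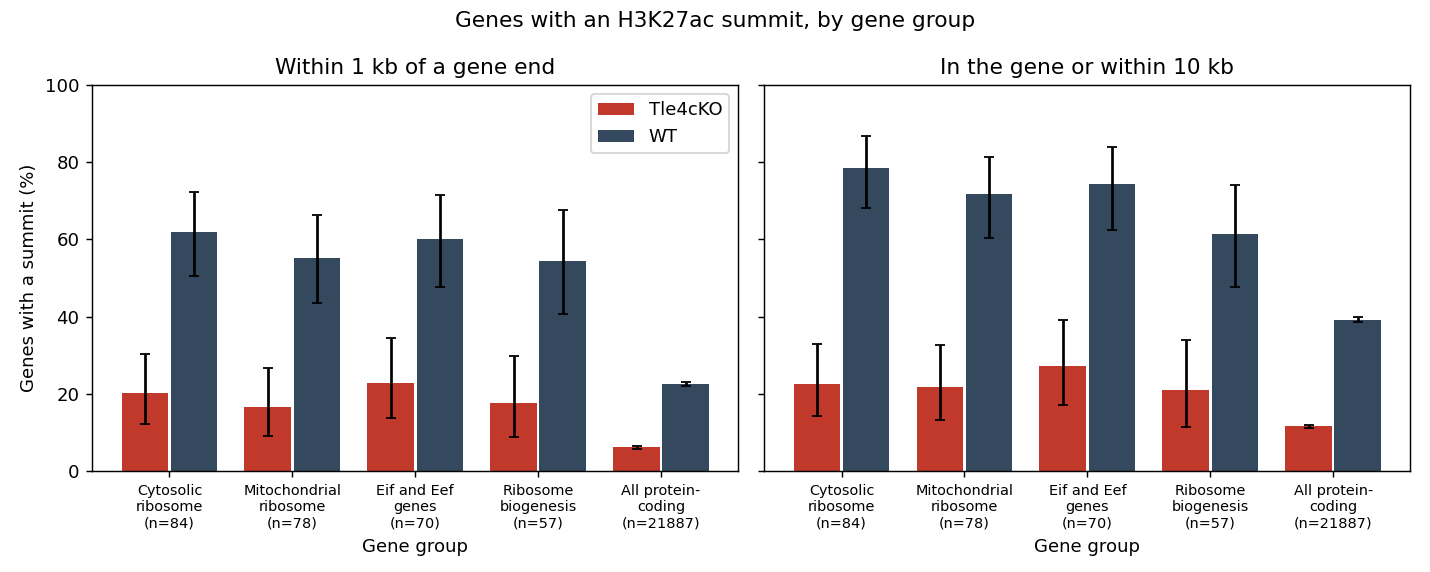
Share of genes (%) with a summit within 1 kb of a gene end (left) or in the gene or within 10 kb (right) in Tle4cKO and WT, for 5 gene groups, with exact 95% intervals as error bars. At gene ends the cytosolic ribosomal protein genes stand at 20.2% in Tle4cKO and 61.9% in WT, with the related groups at similar heights and all protein-coding genes at 6.19% and 22.6%.

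Scores at the called gene ends were then read within each list. In Tle4cKO 1 of 17 ribosomal protein genes with a gene-end summit (5.88%), Rps23, scored at least 5, against 31.9% of the 1355 protein-coding genes with one. The counts were 7 of 13 mitochondrial ribosomal protein genes, 8 of 16 Eif and Eef genes and 5 of 10 ribosome biogenesis genes. Counted over all 84 genes, 1 gene (1.19%, interval 0.0301 to 6.46%) had a Tle4cKO gene-end score of at least 5. The 1.97% of all protein-coding genes lies inside that interval. The higher Tle4cKO share of the group without a score minimum thus rests on summits with scores under 5. In WT 35.7% of the 84 scored at least 5, against 12.1% of all genes. Of these WT genes 3.33% (0.0844 to 17.2%) also had a Tle4cKO score of at least 5, against 13.8% over all genes, which lies inside that interval. This share applies 1 minimum to both lists, although scores grow with depth, which is unknown. In WT 30 of 52 ribosomal protein genes (57.7%) with a summit scored at least 5, against 53.4% of all genes with a summit. Median scores in Tle4cKO were 4.04 for the cytosolic ribosomal protein genes, 6.31 for the mitochondrial ones and 4.15 for all genes, and in WT 5.53, 5.97 and 5.19. Ranked among all genes with a gene-end summit of the same list, the cytosolic ribosomal protein genes had a median percentile of 47.7 in Tle4cKO and 55.6 in WT, so they were marked often but with scores of middle rank.

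Some genes of the related groups scored high in both libraries. Mrpl11, a protein of the mitochondrial large subunit, scored 8.15 in Tle4cKO and 21.8 in WT, and Eif3b, a subunit of initiation factor complex eIF3, 8.39 and 21.9. Ltv1, an assembly factor of the small cytosolic subunit, scored 8.81 in Tle4cKO and 13.4 in WT. Polr1a, the largest subunit of the RNA polymerase that makes rRNA, scored 7.46 and 18.5. These 4 genes were picked after their values had been seen. The WT scores of Mrpl11 and Eif3b exceeded every WT gene-end score of the cytosolic ribosomal protein genes, and Tle4cKO scores of all 4 exceeded every Tle4cKO one but that of Rps23.

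Whether a WT gene was also called in Tle4cKO went with its WT score. Of 11 ribosomal protein genes with a WT gene-end score under 4, 0 were also called in Tle4cKO (interval up to 28.5%), beside 9.53% of all such genes. Between 4 and 6 the counts were 6 of 18 (33.3%, 13.3 to 59.0%), beside 17.9% of all genes, and between 6 and 8 they were 4 of 14 (28.6%, beside 28.6%). At 8 and over 6 of 9 were also called (66.7%, 29.9 to 92.5%), beside 55.8%. The share over all genes lay inside the interval of the ribosomal protein genes in each of the 4 score ranges.

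**Figure D3:**
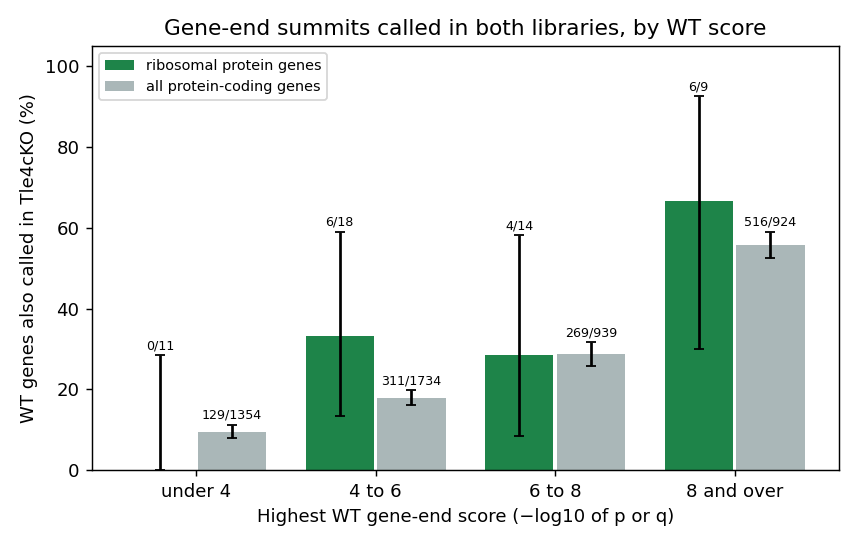
Share (%) of genes with a WT gene-end summit that also had a Tle4cKO gene-end summit, by highest WT score, for ribosomal protein genes and all protein-coding genes, with exact 95% intervals and the counts above the bars. Both sets are higher at high WT scores, from 0 of 11 ribosomal protein genes under a score of 4 up to 6 of 9 at 8 and over.

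Several of the summits stood between a ribosomal protein gene and a neighbour. In Tle4cKO 7 of 17 gene-end summits also lay within 1 kb of another protein-coding gene's end: those of Rpl4 (Zwilch), Rpl7 (Rdh10), Rpl9 (Lias), Rpl35a (Iqcg), Rplp2 (Pidd1), Rps25 (Trappc4) and Rps27a (Clhc1). In WT 13 of 53 summits did. These summits cannot be assigned to one gene of the pair. Of 12 ribosomal protein genes with such a shared WT summit, 6 were also called in Tle4cKO (50%, 21.1 to 78.9%), and of 40 with a WT summit at their own ends alone 10 were (25%, 12.7 to 41.2%). Over all protein-coding genes the shares were 28.7% and 23.0%.

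Positions around the start were read for the genes with a promoter entry, taking the highest summit within 1 kb of a RefSeq start. In Tle4cKO the 13 ribosomal protein genes with such a summit had a median position 33 bases before the start, with 6 downstream and 7 upstream. In WT the 37 genes had a median position 166 bases after the start, with 21 downstream and 16 upstream, and 17 (45.9%) lay 50 to 350 bases downstream. Other protein-coding genes had a median of 110 bases after the start in each library, with 43.8% of 4329 genes 50 to 350 bases downstream in WT. Examples of downstream WT summits were Rplp0 (220 bases), Rpl5 (236), Rps13 (250) and Rps4x (256), and of upstream ones Rpl14 (233 bases before the start), Rpl4 (275) and Rps19 (487).

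**Figure D4:**
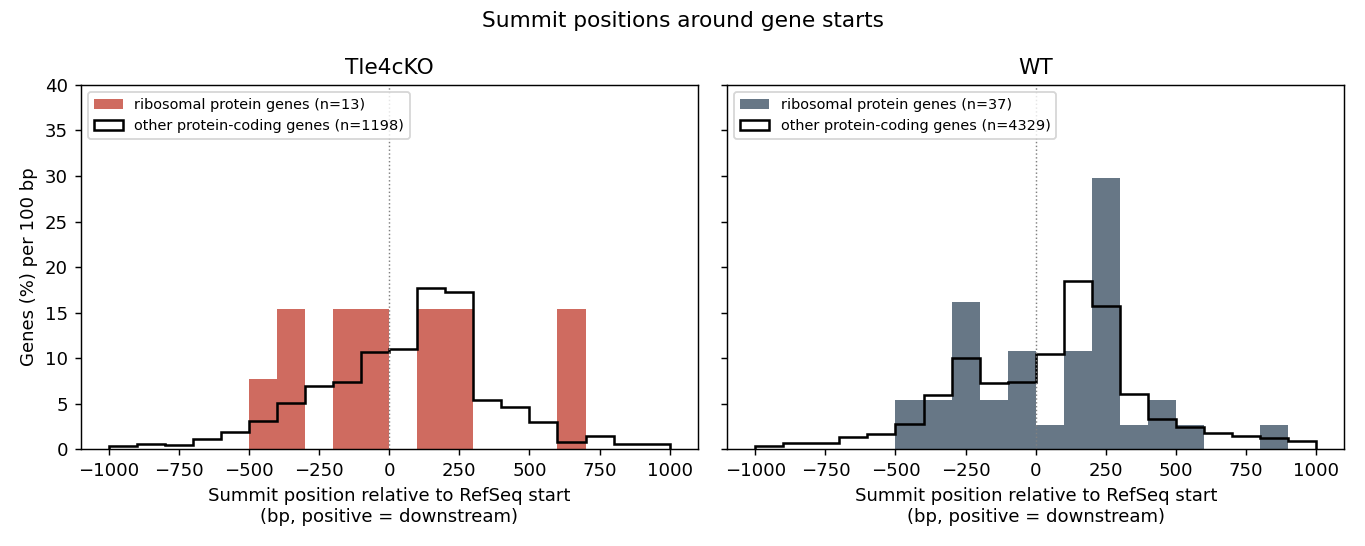
Position of the highest summit within 1 kb of a RefSeq start (bp, positive downstream) as a share of genes (%) per 100 bp, for ribosomal protein genes (filled) and other protein-coding genes (line), in Tle4cKO and WT. The WT positions of 37 ribosomal protein genes have a median of 166 bp downstream, with 17 of them 50 to 350 bp downstream, while the 13 Tle4cKO positions are too few to show a shape.

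The genes were also split by whether they hold snoRNAs. RefSeq places 59 snoRNA genes inside 30 of the 84 genes. Of the 30 hosts, 5 had a gene-end summit in Tle4cKO and 18 (60%) in WT. Of the 54 other genes, 12 had one in Tle4cKO and 34 (63.0%) in WT. Over all protein-coding genes 6.19% had one in Tle4cKO and 22.6% in WT. Rpl4, with 5 snoRNAs the gene with most, and Rpl5, with 3, were called in both libraries, while Rpl13a and Rpl7a, with 4 each, were called in WT alone.

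Ribosomal protein genes have many processed pseudogenes, intronless copies inserted elsewhere in the genome, to which reads from exons can also map. Of 318 such pseudogenes in RefSeq (symbols with -ps), 0 had a summit within 1 kb of an end in Tle4cKO and 0 in WT, which by a limit of 3 counts allows a share of up to 0.943% in each. Within 10 kb, 12 of the 318 had a Tle4cKO summit and 43 a WT summit. In the same window 11.6% and 39.2% of all protein-coding genes had one, and at gene ends 6.19% and 22.6%. Other pseudogenes were not counted, so whether these counts are low for pseudogenes is not known. How the submitters treated reads that map to several places is not given in the sources used here.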

How the data were processed

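The study measured H3K27ac by CUT&Tag in sorted colonic macrophages, with 1 Tle4cKO and 1 WT library. The submitters' processing notes name cutadapt 1.14, Bowtie2 2.2.5 and mm10. Peak calling, any control and the depth are not stated. The authors deposited peak summits with a score, taken here as a −log10 p-value or q-value because the lowest scores (1.37 in Tle4cKO and 1.35 in WT) fall a little over −log10 of 0.05. The sources do not say whether it is p or q.

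Chromosomes 1 to 19, X and Y were used, with positions counted from 1. Genes, starts and promoters came from RefSeq tables on GRCm38.p6. A gene end is either outer end of a gene, and a summit can count for several genes. Genes with a summit within 1 kb of an end, or in the gene or within 10 kb, were counted in Python 3.11.15 with pandas 2.3.3. Intervals are exact Clopper-Pearson 95% intervals from SciPy 1.17.1. Steps were tested on simulated summits. The genes, gene lists and the rule for named genes were chosen with earlier results of these data known. That rule names genes called in both libraries, the 10 highest in WT, genes called in Tle4cKO alone, those without a summit, the paralogs, X-linked, stalk and rRNA-binding genes, and those near the window limits. Some further genes were named after their values had been seen, and motifs and score ranges were also chosen then. Other choices were changed after a look at the data: the paralog list was corrected against the gene table (Rpl32l added), 1 drafted gene list was dropped after its counts had been seen because the membership of 1 gene was doubtful, the window for pyrimidine runs was widened from 10 to 25 bases, with both reported, and the YY1 motif was shortened after a first count with a longer form. The alternatives were other windows, score minimums, a shortened WT list, no paralogs, the closest gene end, starts alone, and other partner distances and ranked summits. Counts cover all 84 genes, but a few genes that these rules would name are not reported here by name. There was no test between genotypes.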

Additional observations from a re-analysis of the deposited data

How the results depend on the processing

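Of 60 values recomputed for 11 results, 41 stayed within 1.5 times the count, or inside the interval of the share, given in the report. Those under gene-end windows of 500 bp and 2 kb, a gene window of 5 kb, other partner distances, the closest summit ranked, no paralogs, the closest gene end alone and starts alone all did. Score minimums and list length moved the other 19. Under the shortened WT list the Tle4cKO counts, 17 at gene ends and 19 within 10 kb, could not change. Both are among the 41. At a score of at least 5, gene-end summits remained at 1 gene in Tle4cKO, 30 in WT and 1 in both, so that 3.33% of WT genes (interval 0.0844 to 17.2%) were also called in Tle4cKO. Over all genes that share was 13.8%, which lies inside the group's interval. Without a minimum the 24.7% of all genes also lay inside the group's interval (30.8%, 18.7 to 45.1%). The Tle4cKO share of the group at a score of at least 5 was 1.19% (interval 0.0301 to 6.46%), and the 1.97% of all genes lies inside that interval. At a score of at least 10 the same 1 gene gave the same share and interval, and the 0.123% of all genes also lies inside. Without a minimum the share of the group was above that of all genes (20.2% against 6.19%). Within 10 kb a score of at least 5 left 3 genes in Tle4cKO (3.57%, near the 3.61% of all genes), 36 in WT (42.9%, against 20.9%) and 3 in both (3.57%, against 3.07%), with 8.33% of WT genes also called, against 14.7%. At a score of at least 10, gene-end summits were called at 1 gene in Tle4cKO, 3 in WT and 1 in both (0.123%, 2.04% and 0.105% of all genes), and summits within 10 kb at 2, 5 and 2 (0.471%, 3.34% and 0.384%). With the WT list cut to its 2350 highest scores, 20 genes had a WT gene-end summit (23.8%, against 7.51% of all genes) and 9 had both (10.7%, against 3.29%). Within 10 kb 25 had a WT summit (29.8%, against 12.8%) and 11 both (13.1%, against 6.11%), and 44.0% of WT genes were also called in Tle4cKO, against 47.7% of all. Fewer summits enter under each of these. No paired analysis was possible because each genotype has 1 library. Unknown depth limits all absences: a gene without a summit cannot be called unmarked.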

Other observations

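Among the ribosomal protein genes with a promoter entry, a pyrimidine run beginning within 10 bases of the RefSeq start was found in 6 of 11 genes with gene-end summits in both libraries, in 10 of 26 with one in WT alone and in 23 of 26 with none in either. With 25 bases the counts were 10 of 11, 18 of 26 and 25 of 26. An ETS-type match was found in 5 of 11, 10 of 26 and 10 of 26 genes. These splits were made after the values had been seen. They use summits at the outer gene ends, so the genes with none in either include Rpl19 and Rps27l. Yet Rpl19 had summits 33 and 32 bases before a RefSeq start in Tle4cKO and WT, and Rps27l a WT summit 241 bases before one.

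Of the WT summits near starts with a score of 8 and over, 2 of 5 at ribosomal protein genes, Rpl19 and Rps23, lay within 50 bases of the start, beside 7.81% of 819 at other protein-coding genes. The number of ribosomal protein genes is too small for a comparison.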
